A study of Mus musculus with 4 samples.

Results

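Mrc1, Clec7a, Clec10a and Mgl2 encode 4 C-type lectin receptors that are commonly used as surface markers of alternatively activated (M2) macrophages. They were chosen by name, and all 4 were found among the 16403 genes listed in any of the 4 libraries, each with reads in every library. The libraries were made from thioglycolate-elicited peritoneal macrophages of C57BL/6 mice, young adults by the study's methods. The mice were wild-type littermates or conditional knockouts (TIF1a-KO) that carried floxed alleles of Trim24, the gene for TIF1a, and the LysM-Cre driver, which acts in macrophages, neutrophils and other myeloid cells. By the labels, cells of each genotype were collected 4 days after injection of 4% thioglycolate (the study's methods give a range that starts there), adhered for 4 h, were starved in 0.5% serum, and were then left without stimulus (nontreat) or given mouse IL-4 at 20 ng/mL for 6 h. Each of the 4 groups held 1 library, and how many mice gave each library is not stated in the sources used here. No difference below therefore has a replicate check. A fit of treatment and genotype over all 4 libraries, given below, has 1 residual degree of freedom among libraries. Apart from that fit, standard errors, intervals and tests cover the counting of reads in these libraries only.

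The mannose receptor (Mrc1, CD206) is a long endocytic receptor whose lectin domains bind mannose- and fucose-bearing glycoproteins. Dectin-1 (Clec7a) binds fungal beta-glucan and signals through a cytoplasmic motif to the kinase Syk. Clec10a and Mgl2 are the mouse macrophage galactose-type lectins MGL1 and MGL2, close relatives of the asialoglycoprotein receptor that bind galactose and N-acetylgalactosamine. IL-4 signals through its receptor and Jak kinases to the transcription factor Stat6, which binds DNA elements of the type TTCNNNNGAA (N, any base).

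On GRCm38, Mrc1 lies at chr2:14229414-14332023, Clec7a at chr6:129461591-129472785, Mgl2 at chr11:70130125-70137542 and Clec10a at chr11:70166623-70170836. Their transcripts differ in length: the authors' mean transcript lengths were 5322 bases for Mrc1, 1550 for Mgl2, 2149 to 2151 for Clec7a and 1498 to 1499 for Clec10a over the 4 libraries. RefSeq also places the microRNA gene Mir511 inside Mrc1, the non-coding RNA Gm45969 over Clec7a and the pseudogene Gm12311 over the start of Mgl2. None of these 3 was listed in any library, and a strand setting of the counting is not given in the sources used here.

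The 250 bases before a RefSeq start site are shown for Mrc1 and Clec7a, the most abundant of the 4 and both higher after IL-4. The windows (RefSeq, GRCm38.p6, 5′ to 3′ in the direction of the gene) are chr2:14229164-14229413 on the plus strand for Mrc1 and chr6:129472780-129473029 on the minus strand for Clec7a. Clec7a has a further RefSeq start a few bases upstream, at the gene's end given above, so the last bases of its window lie inside the gene. The start that the promoter table uses for Mgl2 lies inside the RefSeq gene, and its window is not used here. Capitals mark a match to TTCNNNNGAA, a motif that reads the same on both strands.
Mrc1: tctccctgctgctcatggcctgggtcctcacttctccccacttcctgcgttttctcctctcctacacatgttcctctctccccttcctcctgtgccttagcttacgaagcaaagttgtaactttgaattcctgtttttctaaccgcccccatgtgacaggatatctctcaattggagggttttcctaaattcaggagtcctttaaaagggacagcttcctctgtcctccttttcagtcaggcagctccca
Clec7a: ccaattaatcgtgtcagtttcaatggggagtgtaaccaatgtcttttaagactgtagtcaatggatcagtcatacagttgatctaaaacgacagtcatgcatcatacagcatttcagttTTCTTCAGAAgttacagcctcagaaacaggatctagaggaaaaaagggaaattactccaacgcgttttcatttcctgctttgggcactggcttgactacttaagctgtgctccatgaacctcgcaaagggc
Clec7a held TTCTTCAGAA, from 131 to 122 bases before the start used, or from 125 to 116 before the upstream start. The letters TTCNNNNGAA were not in the window of Mrc1, and TTCNNNGAA, a related element with a shorter spacer that is likewise its own reverse complement, was in neither window. Over 32851 windows of the same length, 5.85% held TTCNNNNGAA and 7.02% held TTCNNNGAA. A match describes the letters of the window and is not a measured binding site.

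Clec10a and Mgl2 are near-copies, which bears on how their reads could be divided. Their coding sequences (912 and 996 bases without the stop codon) were identical at 838 of 910 aligned bases (92.1%). The longest identical run covered 183 bases, from coding base 499 to 681 in Clec10a and from 547 to 729 in Mgl2, across exon borders, and it is shown because reads that lie wholly within it fit both genes.
Shared run: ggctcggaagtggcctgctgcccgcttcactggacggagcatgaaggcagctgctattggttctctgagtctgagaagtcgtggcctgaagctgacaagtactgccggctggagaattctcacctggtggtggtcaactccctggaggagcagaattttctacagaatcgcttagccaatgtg
The window of 90 bases where the pair differed most is shown for contrast, with its 27 differing bases in capitals. It lies within 1 exon of each gene, at chr11:70170449-70170538 for Clec10a and chr11:70136952-70137041 for Mgl2 on the plus strand (GRCm38).
Clec10a: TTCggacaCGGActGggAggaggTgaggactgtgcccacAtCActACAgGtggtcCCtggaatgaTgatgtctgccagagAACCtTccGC
Mgl2: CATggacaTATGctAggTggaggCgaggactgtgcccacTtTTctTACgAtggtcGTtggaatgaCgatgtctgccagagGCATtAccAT
Of all distinct windows of 50 bases in the transcripts, 242 were shared, which was 16.2% of those of Clec10a and 15.7% of those of Mgl2. For windows of 100 bases, 91 were shared (6.08% and 6.12%). The read length is not given in the sources used here. Expected reads (the reads that the RSEM program assigned to a gene) were whole numbers for Mrc1 and Clec7a in every library and fractional for Clec10a and Mgl2, as happens where reads match several genes.

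The libraries held between 11026033 and 11250099 expected reads, so that 3 reads, the floor used here, corresponded to 0.267 to 0.272 CPM (counts scaled to a common library total). Trim24 had 175 reads in the wild-type nontreat library and 103 in the wild-type IL-4 library, against 4 in TIF1a-KO nontreat and 10 in TIF1a-KO IL-4. All 8 macrophage markers examined were listed in every library, but their summed level was lower in the knockout libraries (8955 and 8320 FPKM, reads scaled by transcript length and library total) than in the wild-type libraries (14910 and 14770), mostly through Lyz2. Lyz2 stood at 11290, 10810, 5193 and 4761 FPKM in wild-type nontreat, wild-type IL-4, TIF1a-KO nontreat and TIF1a-KO IL-4. Without IL-4 the gap between genotypes was larger for Lyz2 than for the sum, so the other markers together were not lower there. In the IL-4 libraries the gap was smaller for Lyz2 than for the sum, so the other markers together were lower in the knockout. LysM-Cre is inserted at the Lyz2 gene, and the part of the Cre allele in any result was not tested.

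To examine how strongly each receptor was expressed, FPKM values, which are per length, were compared within and between libraries. Throughout, 4 values in a row are given in the order wild-type nontreat, wild-type IL-4, TIF1a-KO nontreat and TIF1a-KO IL-4. Clec7a was the most abundant, at 229, 581, 259 and 511 FPKM. It ranked 282nd of the 14842 genes listed in the wild-type nontreat library and 125th of 14717 in the wild-type IL-4 library. Mrc1 stood at 11.4, 115, 15.9 and 126 FPKM, and moved from rank 4978 to rank 613 in the wild-type pair and from 3918 to 548 in the knockout pair. Clec10a was lower, at 4.52, 18.2, 5.22 and 17.3 FPKM. Mgl2 was the lowest, at 0.17, 5.76, 0.61 and 8.17 FPKM, which rested on 3, 100, 10 and 139 rounded reads. For each member both IL-4 libraries were above both nontreat libraries.

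**Figure D1:**
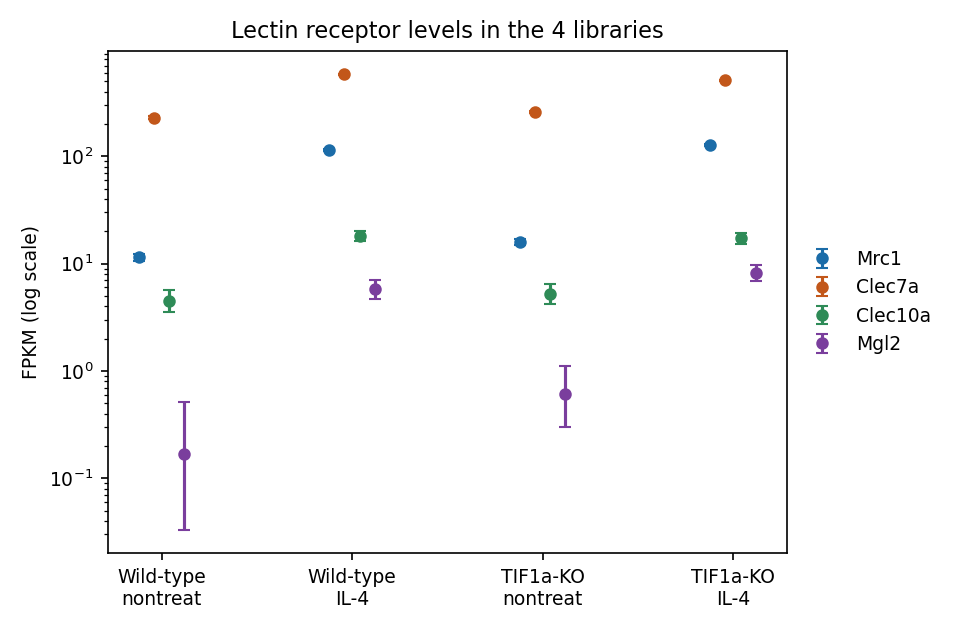
FPKM (log axis) of Mrc1, Clec7a, Clec10a and Mgl2 in the 4 libraries, 1 library per group. Points are the deposited values and bars 95% Poisson intervals for counting error only. The order Clec7a, Mrc1, Clec10a, Mgl2 is the same in every library, and Mgl2 runs from 0.17 FPKM in the wild-type nontreat library to 8.17 in the TIF1a-KO IL-4 library.

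The order Clec7a, Mrc1, Clec10a, Mgl2 held in every library, and the 95% counting intervals of neighbours in that order did not overlap. The closest neighbours were Clec10a and Mgl2 in the TIF1a-KO IL-4 library, with intervals of 15.4 to 19.5 and 6.87 to 9.65 FPKM. Distances within the order changed with IL-4. Clec7a was 20.1 times as abundant as Mrc1 in the wild-type nontreat library and 5.06 times in the wild-type IL-4 library, and Clec10a was 26.6 and 3.16 times as abundant as Mgl2 in the same libraries. The summed level of the 4 receptors was 245.6, 719.8, 281.0 and 662.6 FPKM. Clec7a made up 93.4%, 80.7%, 92.3% and 77.1% of that sum, and Mrc1 4.65%, 16.0%, 5.65% and 19.1%. Between nontreat and IL-4 the share of Mrc1 therefore grew while that of Clec7a shrank in both genotypes, although the level of both rose.

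To determine the response to IL-4, the IL-4 library of each genotype was compared with its nontreat library. All 4 receptors were higher after IL-4 in both genotypes. A gene was called where its ratio on the log2(FPKM + 0.1) scale exceeded 1.5-fold and a two-sided Fisher's exact test of its reads gave a Benjamini-Hochberg adjusted p under 0.05 over all genes tested. By this rule the wild-type pair had 4.91% of its 15593 tested genes higher and 7.88% lower, and the knockout pair 5.29% of 15738 higher and 4.03% lower. The median log2 ratio of the 4 members was 2.65 (wild-type) and 2.35 (knockout), against -0.03 and 0.00 over all genes tested. These genes are known markers of the IL-4 response and were chosen with earlier results of these data known. Their direction is therefore not an independent check of the treatment.

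Mgl2, with the lowest starting level, had the largest ratio of the 4 in both genotypes at the pseudocount of 0.1. With a pseudocount of 1 Mrc1 was ahead of it (log2 ratios of 3.22 against 2.53 in wild-type and 2.92 against 2.51 in knockout cells). In the wild-type pair its log2 ratio was 4.44 ± 0.80 (counting standard error). Because the nontreat library held only 3 reads, the ratio of reads per library total, 32.7, had an exact 95% interval of 10.9 to 161 (adjusted p = 1.2e-24, Fisher's exact test). In the knockout pair the log2 ratio was 3.54 ± 0.45 and the read ratio 13.9, with an interval of 7.34 to 29.6 (adjusted p = 5.2e-29, Fisher's exact test). Both intervals lay far above 1 and overlapped each other, and that of the knockout held the whole interval of Mrc1 given next.

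Mrc1 followed, with log2 ratios of 3.32 ± 0.06 for wild-type and 2.99 ± 0.05 for knockout cells. Its FPKM ratios were 10.1 (9.29 to 10.9) and 7.97 (7.45 to 8.54). Among genes averaging 1 FPKM or more, only 59 of 10519 had a higher ratio than Mrc1 in the wild-type pair and 63 of 10524 in the knockout pair, and 40 and 41 were above Mgl2. For Clec10a the wild-type log2 ratio was 1.98 ± 0.19 (adjusted p = 4.7e-32, Fisher's exact test), and the knockout log2 ratio was 1.71 ± 0.18 (adjusted p = 1.3e-24, Fisher's exact test). Its FPKM ratios were 4.02 and 3.32, with intervals of the read ratio of 3.13 to 5.29 and 2.59 to 4.26. Clec7a had the smallest ratios, 1.34 ± 0.02 and 0.98 ± 0.02 on the log2 scale, or 2.53-fold and 1.97-fold. The intervals of its read ratio were 2.45 to 2.61 and 1.91 to 2.03. The adjusted p of Mrc1 and Clec7a in both pairs was below the smallest number the software holds. Clec7a nevertheless gained the most in absolute level, from 229 to 581 FPKM in the wild-type.

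An additive edgeR fit of treatment and genotype over the 4 libraries, which has 1 residual degree of freedom, called all 4 receptors higher with IL-4, as it did 12.0% of 11791 genes. The IL-4 term was 3.17 for Mrc1 (adjusted p = 5.8e-11), 1.17 for Clec7a (adjusted p = 8.7e-07), 1.88 for Clec10a (adjusted p = 2.7e-07) and 4.18 for Mgl2 (adjusted p = 2.2e-07), all on the log2 scale. This fit takes the difference between the genotypes' responses as noise. Its adjusted p-values changed by many orders of magnitude with the settings of the fit, although all 4 receptors stayed called in each.

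**Figure D2:**
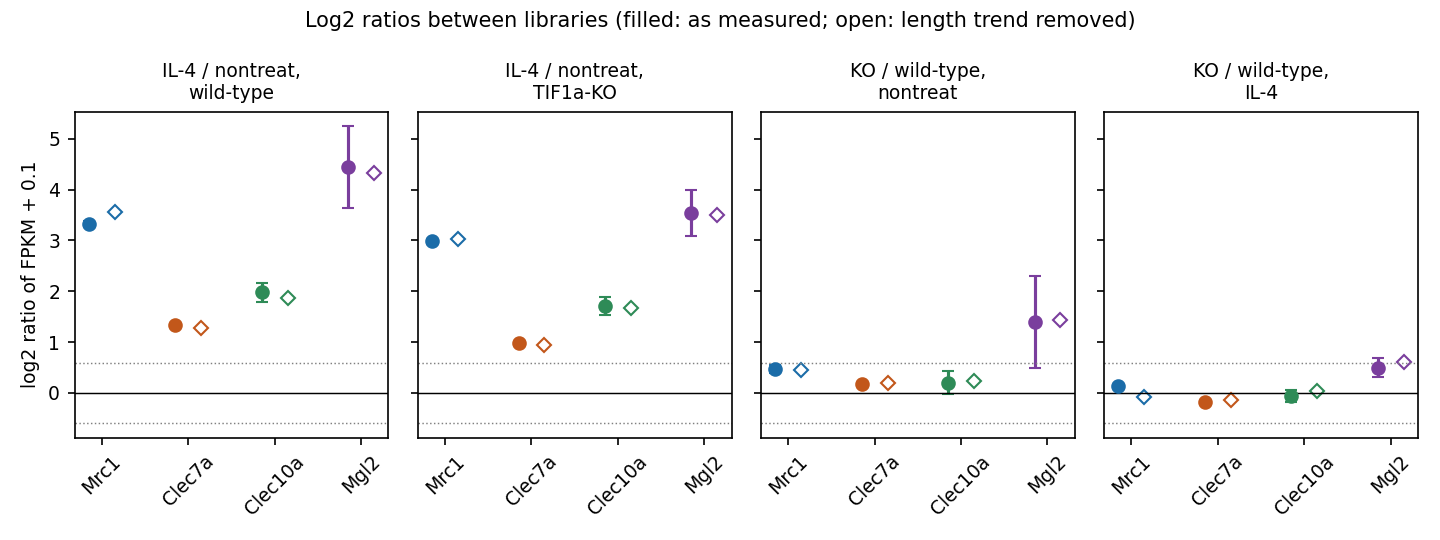
Log2 ratios of FPKM + 0.1 between pairs of libraries for the 4 receptors, with filled circles for the measured ratio (bars, 1 counting standard error) and open diamonds for the ratio after removal of the length trend. Dotted lines mark 1.5-fold. All members lie above the upper line for IL-4 in both genotypes, and in the comparison of the IL-4 libraries Mrc1 lies at 0.14 as measured and at -0.07 without the length trend.

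The next comparison asked whether the IL-4 response differed between the genotypes. The ratio after IL-4 was smaller in the knockout for each of the 4 receptors. The difference of the log2 responses (knockout minus wild-type, on counts plus 0.5) was -0.34 ± 0.08 for Mrc1 (adjusted p = 0.00039) and -0.36 ± 0.03 for Clec7a (adjusted p = 1.7e-26), by a two-sided normal test against counting error adjusted over 16371 genes. For Clec10a it was -0.29, with a 95% interval of -0.79 to 0.21 (adjusted p = 0.68), and for Mgl2 -1.08, with an interval of -2.87 to 0.70 (adjusted p = 0.66). At this depth the intervals of Clec10a and Mgl2 hold both no difference and differences as large as those of the other pair. No member passed the test together with a difference above 1.5-fold, as 1.89% of all genes did.

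Between genotypes, Mrc1 differed more without IL-4 than with it, and Clec7a differed in opposite directions. Without IL-4, Mrc1 was higher in the knockout library by a log2 ratio of 0.47 ± 0.07, from 11.4 to 15.9 FPKM (adjusted p = 5.7e-09, Fisher's exact test). Clec7a was higher there by 0.18 ± 0.03, from 229 to 259 FPKM (adjusted p = 6.5e-09, Fisher's exact test). Neither reached 1.5-fold. The log2 ratio of Clec10a was 0.20 ± 0.23 (adjusted p = 0.79, Fisher's exact test), with 74 and 86 rounded reads. Mgl2 had 3 wild-type and 10 knockout reads, and the interval of its read ratio, 0.859 to 18.9, included 1 (adjusted p = 0.33, Fisher's exact test). Thus 0 of the 4 members were called, where 0.839% of 15623 genes were called higher and 0.742% lower. The median log2 ratio of the members was 0.34, against 0.00 over all genes.

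With IL-4 the genotypes were closer for Mrc1 and opposite in sign for Clec7a. Mrc1 stood at 115 (wild-type) and 126 FPKM (knockout) (log2 ratio 0.14 ± 0.02, adjusted p = 2.7e-07, Fisher's exact test), a direction that turned to -0.07 when the length trend described next was removed. Clec7a stood at 581 and 511 FPKM (log2 ratio -0.19 ± 0.02, adjusted p = 5.6e-24, Fisher's exact test). Clec10a differed by -0.07 ± 0.12 (adjusted p = 0.78, Fisher's exact test), at 18.2 and 17.3 FPKM. Mgl2 stood at 5.76 and 8.17 FPKM (log2 ratio 0.50 ± 0.19, read ratio 1.42 with an interval of 1.09 to 1.85, adjusted p = 0.042, Fisher's exact test), just under the 1.5-fold limit. Again 0 of the 4 were called, where 3.05% of 15573 genes were called higher in the knockout and 0.764% lower. The members' median log2 ratio was 0.03, against 0.02 over all genes. In the additive fit the genotype term called 1.66% of genes and none of the 4 receptors, with 0.29 for Mrc1 (adjusted p = 0.20), -0.01 for Clec7a (adjusted p = 0.98), 0.02 for Clec10a (adjusted p = 0.97) and 0.60 for Mgl2 (adjusted p = 0.30) from edgeR.

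These libraries differed along transcript length, and the members sit at different places on that axis. Genes were split into eighths by length, and Mrc1 fell in the seventh eighth (4096 to 5368 bases), Clec7a in the third and Clec10a and Mgl2 in the second (1223 to 1736 bases). Between the IL-4 libraries, the genotype ratio (knockout over wild-type) had a log2 median of -0.17 in the shortest eighth and 0.34 in the longest. It was 0.15 in the eighth that holds Mrc1 and -0.12 in that of Clec10a and Mgl2. The measured Mrc1 ratio of 0.14 was thus close to the median of genes of its length. Without IL-4 the medians ran only from -0.04 to 0.04, and Mrc1 at 0.47 stood above the 0.00 of its eighth.

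**Figure D3:**
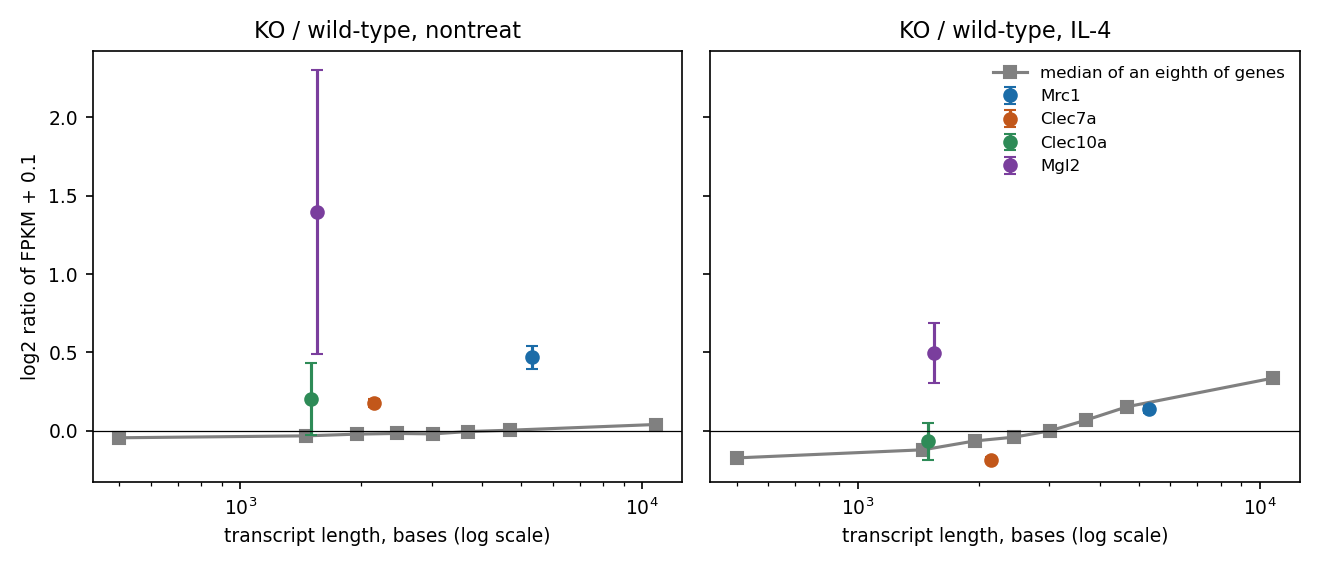
Log2 ratio of knockout to wild-type (FPKM + 0.1) against transcript length in bases (log axis), without IL-4 (left) and with IL-4 (right). Grey squares are medians of eighths of all genes of 200 bases or more that averaged 1 FPKM or more, placed at the geometric centre of the length range, and coloured points are the 4 receptors with 1 counting standard error. With IL-4 the medians rise from -0.17 to 0.34, and Mrc1 at 0.14 lies near the line.

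To compare the members without this trend, a smooth curve over length was subtracted from each library. The curve took -0.24 from the wild-type IL-4 ratio at the length of Mrc1, so that its log2 response became 3.56, and 3.03 for the knockout pair. The other 3 wild-type responses became 1.29 for Clec7a, 1.87 for Clec10a and 4.34 for Mgl2. All 4 members were still called higher with IL-4 in both genotypes. The difference of responses grew to -0.53 for Mrc1 (adjusted p = 1.1e-09) and was -0.34 for Clec7a (adjusted p = 1.1e-22). Between the IL-4 libraries the curve was 0.21 at the length of Mrc1 and about -0.11 and -0.10 at those of Clec10a and Mgl2. After its removal the genotype ratio of Mrc1 was -0.07, that of Clec10a 0.04, that of Clec7a -0.14 and that of Mgl2 0.60. Mgl2 then passed both limits (adjusted p = 0.017, exact binomial test) and was the only member called between genotypes. Without IL-4 the same step left Mrc1 at 0.46 and Clec7a at 0.20, near their measured values.

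The balance within the pair of galactose-type lectins moved toward Mgl2 with IL-4. Of the rounded reads assigned to either gene, Mgl2 held 3 of 77 in the wild-type nontreat library (3.90%, 95% Wilson interval 1.33% to 10.8%) and 100 of 405 in the wild-type IL-4 library (24.7%, 20.7% to 29.1%). In the knockout it held 10 of 96 (10.4%, 5.76% to 18.1%) and 139 of 423 (32.9%, 28.6% to 37.5%). The intervals before and after IL-4 did not overlap in either genotype. With IL-4 the share was higher in the knockout and the intervals met only between 28.6% and 29.1%, and the difference of the shares between genotypes was not tested. These shares depend on how RSEM divided reads of the shared stretches. Summed over both genes, which removes the division between them, the wild-type IL-4 ratio was 5.02-fold (log2 2.33 ± 0.18, adjusted p = 9.4e-52, Fisher's exact test). The knockout ratio was 4.32-fold (2.11 ± 0.16, adjusted p = 1.6e-48, Fisher's exact test). The summed genotype ratio was 0.31 ± 0.22 without IL-4 (adjusted p = 0.55). In the IL-4 libraries it was 0.09 ± 0.10 (adjusted p = 0.64, Fisher's exact test).

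**Figure D4:**
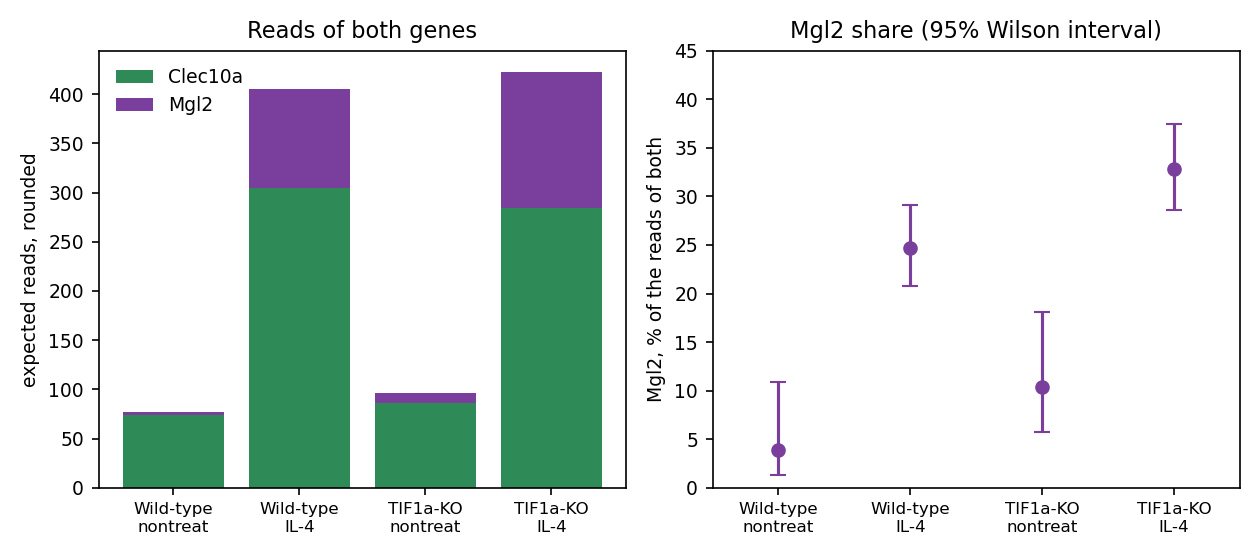
Rounded expected reads of Clec10a and Mgl2 in each library (left, stacked bars from 0) and the share of them assigned to Mgl2 in percent (right, bars are 95% Wilson intervals for counting error). The Mgl2 share is 3.90% and 10.4% in the nontreat libraries and 24.7% and 32.9% in the IL-4 libraries.

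Other genes of the C-type lectin families were called in both directions. Of 40 such genes without the 4 receptors, 30 could be tested in wild-type cells, where IL-4 gave 3 calls upward and 8 downward, and 31 in knockout cells, with 3 upward and 6 downward. Over all genes 4.91% and 7.88% were called upward and downward in wild-type cells, and 5.29% and 4.03% in knockout cells. Their median log2 ratios were 0.05 and -0.16. In the mannose receptor family, Ly75 (DEC-205, an endocytic receptor) fell with IL-4 in both genotypes: wild-type cells went from 13.7 to 6.85 FPKM and knockout cells from 17.2 to 10.7. Mrc2 was called lower in the wild-type only, at 32 and 12 reads, and that call ended when the length trend was removed. Pla2r1 never exceeded 4.01 expected reads. In the asialoglycoprotein receptor family, Asgr1 and Clec4f were not listed, and Asgr2 had 2 reads in a single library.

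Among the genes next to Clec7a in the Dectin-1 cluster, Olr1, which encodes the oxidized-lipoprotein receptor LOX-1, rose with IL-4 by log2 ratios of 2.39 and 1.91 (wild-type, then knockout). Clec12a, an inhibitory receptor, fell, with log2 ratios of -2.08 and -1.88. In the Dectin-2 cluster, Clec4e (Mincle), at -2.21 and -1.95, and its partner Clec4d, at -2.18 and -1.93, both fell, while Clec4a3 rose by 0.97 and 0.79. Reads of the Clec4a genes may be shared between near-identical copies. Of the remaining lectins, Cd93 (-1.79 and -1.40) and Thbd (thrombomodulin, -1.02 and -1.05) fell, and Cd72 rose by 1.005 and 0.98. These directions held under each scaling tried and without the length trend. Between genotypes, Colec12, a scavenger receptor with a lectin domain, was higher in the knockout at 20.8, 16.2, 63.2 and 47.9 FPKM, with log2 ratios of 1.60 without and 1.56 with IL-4. Clec4e was lower in the knockout without IL-4 (-0.76). With IL-4, Ly75 (0.64) and Clec2i (0.73) were called higher and Olr1 (-0.69) lower, and Ly75 lost its call without the length trend.

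**Figure D5:**
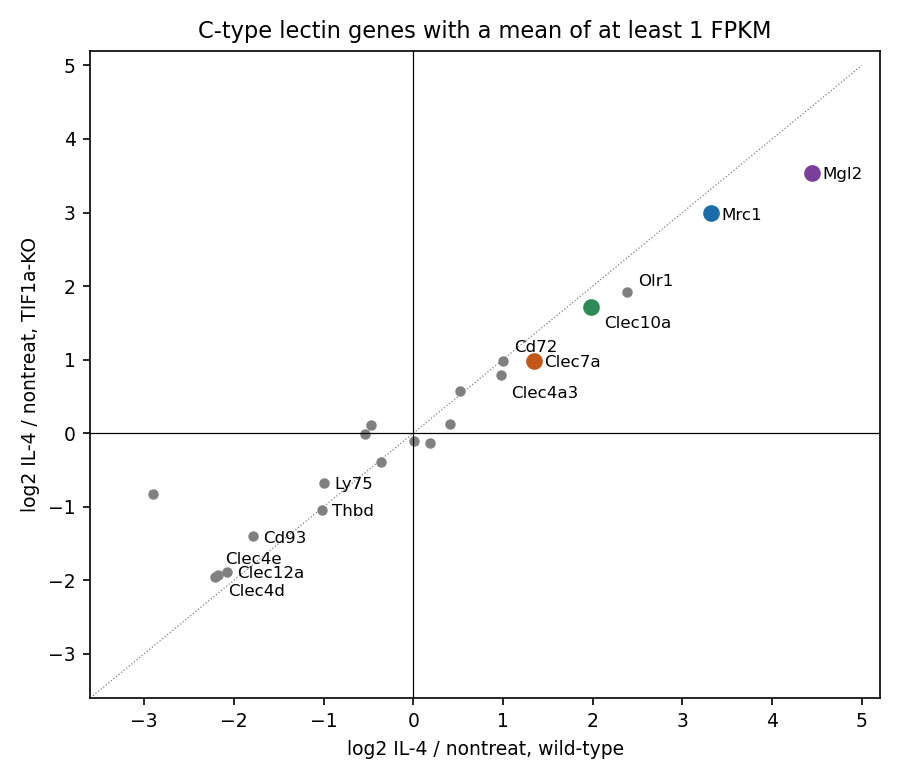
Log2 ratio of IL-4 to nontreat in the wild-type (x axis) and in the knockout (y axis) for the 4 receptors (coloured) and the 17 other C-type lectin genes averaging 1 FPKM or more (grey), on log2(FPKM + 0.1). The dotted line marks equal ratios. The 4 receptors and Olr1 lie at the upper right, and Clec4e, Clec4d and Clec12a at the lower left.

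Of 13 genes linked to Dectin-1 signalling, all tested, 0 were called higher with IL-4 in either genotype. With 4.91% and 5.29% of all genes called higher, a count of 0 in so short a list is near the background and says nothing particular about these genes. Plcg2 and Vav3 were called lower in the wild-type and Vav1 in the knockout, names given after their values were seen. Over all genes 7.88% and 4.03% were called lower (wild-type, then knockout). Each of these genes fell in both genotypes, and the ratios without a call missed only the 1.5-fold limit. The log2 ratios were -0.62 and -0.45 for Plcg2, -0.83 and -0.45 for Vav3, and -0.57 and -0.71 for Vav1. The Plcg2 call ended without the length trend. The median log2 ratios of the 13 genes were -0.17 and -0.19, in the same order. Syk, the kinase next to the receptor, stood at 110, 80.1, 116 and 88.6 FPKM, under the 1.5-fold limit in both pairs. With IL-4 the kinase gene Src was higher in the knockout, at 8.23 against 4.48 FPKM (log2 ratio 0.86).

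Genes of the pathway that carries the IL-4 signal were examined next, together with regulators and transcription factors linked to it. Of 16 genes of this IL-4 receptor and Stat6 axis, 8 were called higher and 1 lower in wild-type cells, against 9 and 1 in knockout cells. Over all genes 4.91% and 7.88% were called higher and lower in wild-type cells, and 5.29% and 4.03% in knockout cells. Il4ra, Il2rg, Il13ra1, Jak1, Jak3, Tyk2 and Stat6, which carry the signal, were not among those called higher. The gene called lower in both was Il13ra1 (log2 ratios -0.70 and -0.59), a name given after its values were seen. The negative regulators Cish and Socs1 and the transcription factor Irf4 were among the highest: Cish went from 0 to 662 wild-type reads and from 5 to 712 knockout reads, Socs1 rose by log2 ratios of 4.81 and 4.41, and Irf4 by 4.53 and 4.60. Myc rose by 1.57 and 1.963, and was lower in the knockout without IL-4 (-0.74). Stat6 itself stood at 69.7, 56.0, 72.6 and 59.4 FPKM and Il4ra at 9.76, 12.35, 9.51 and 12.06. Kdm6b, a histone demethylase gene, was higher in the knockout with IL-4 (log2 ratio 1.005, or 0.71 without the length trend).

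Other M2 genes named in the study, and so not an independent choice, gave wild-type log2 responses from 0.86 (Tgm2) to 7.90 (Arg1), against 1.34 to 4.44 for the 4 receptors. Of 7 such genes, 7 were called higher in wild-type and 6 in knockout cells, where 4.91% and 5.29% of all genes were. Irf4 is among them and was also counted in the preceding list. Arg1, the arginine-degrading enzyme, rose by log2 ratios of 7.90 and 7.06, Chil3, a chitinase-like secreted protein, by 6.26 and 6.46, and Retnla by 4.15 and 3.35. Between genotypes, 2 of the 7 genes were called higher in the knockout both without and with IL-4: Arg1 (1.503 and 0.66) and Chil3 (0.62 and 0.82). Over all genes 0.839% were called higher without IL-4 and 3.05% with it. Between the IL-4 libraries, Retnla (log2 ratio 0.42), Irf4 (0.56) and Tgm2 (0.38) were higher in the knockout but under 1.5-fold. Their adjusted p-values were 0.017, 2.8e-16 and 1.2e-25 (Fisher's exact test). Ccl17 (10 wild-type and 6 knockout reads) and Ccl24 (72 and 62 reads) did not pass the test, so no direction is read from them (adjusted p = 0.75 for each, Fisher's exact test). No lectin receptor of the 4 was called in either comparison as measured. Whether the genotype ratios of the receptors differ from those of Arg1 and Chil3 was not tested.

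The genes most like each receptor across the 4 libraries were found by the Euclidean distance between log2(FPKM + 0.1) values centred on each gene's mean, among 7464 genes averaging 5 FPKM or more. Nearest to Mrc1 were Mcf2l (distance 0.29), Fcgr2b (0.44), which encodes the inhibitory IgG receptor, and Rab3il1 (0.47). Clec7a was closest to Aopep (0.08), Irf1 (0.08) and Snx5 (0.09), and Clec10a to 5830432E09Rik (0.10), the chemokine gene Ccl9 (0.15) and Bcar3 (0.15). Mgl2 was closest to Retnla (0.28), Batf3 (0.64) and Serpina3h (0.71). Retnla, at 1.58, 29.7, 3.81 and 39.7 FPKM, had the same order of libraries as Mgl2. Of each trio, 1, 3, 2 and 3 genes were also found without the length trend for Mrc1, Clec7a, Clec10a and Mgl2. Distances rest on 4 libraries and describe likeness of pattern only.

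All 4 receptors are also known from cells other than macrophages, dendritic cells among them. In bulk RNA, fewer cells of a type and less RNA per cell cannot be told apart. Of 8 dendritic cell markers, 7, 7, 7 and 6 were listed, with summed levels of 2.90, 2.94, 2.95 and 3.03 FPKM, and Kmo or Clec9a was at 0 in each library. Over the same libraries Mgl2 ranged from 0.17 to 8.17 FPKM. The 6 markers of resident large peritoneal macrophages summed to between 9.22 and 11.2 FPKM. Eosinophil markers summed to between 1.44 and 2.47 FPKM, with Epx and Ear6 at 0 in every library, and neutrophil markers to between 5.15 and 8.86 FPKM, with S100a9, Ly6g, Retnlg and Ngp at 0 throughout. Mast cell markers (3.63 to 9.12 FPKM) were highest in the TIF1a-KO nontreat library, and mesothelial or fibroblast markers (22.7 to 45.5 FPKM) were lowest there. B cell markers summed to between 4.08 and 6.52 FPKM and T cell markers to between 1.14 and 2.49 FPKM. From lowest to highest, the resident macrophage sum had the same order of libraries as Clec7a and Clec10a (9.22 in wild-type nontreat, 10.1 in TIF1a-KO nontreat, 10.4 in TIF1a-KO IL-4 and 11.2 FPKM in wild-type IL-4). That order is of the sum and not of each marker. Apoc2, the highest of the 6 in every library, was lower with IL-4 in both genotypes. It stood at 4.85 (nontreat) and 4.10 FPKM (IL-4) in the wild-type, and at 4.96 and 4.23 FPKM in the knockout. No sum had the order of Mrc1 and Mgl2. The part of these cells in the levels of the receptors was not tested.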

How the data were processed

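RNA of 4 libraries was sequenced on an Illumina HiSeq instrument. Per the submitters' processing notes and the study's methods, the authors mapped reads with Bowtie to GRCm38 (mm10) and quantified genes with RSEM, versions not given in the sources used here. The authors deposited for each listed gene an expected count (reads assigned by RSEM, not always whole), an FPKM value (expected count per effective length and library total) and the mean transcript length. Genes not listed were set to 0. Of 16403 gene IDs, 16365 matched a RefSeq table of GRCm38.p6.

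Library totals were 11035641 (wild-type nontreat), 11250099 (wild-type IL-4), 11029779 (TIF1a-KO nontreat) and 11026033 (TIF1a-KO IL-4) expected reads. Samples were grouped by genotype and treatment as labelled. Expected counts were rounded, and pairs of libraries were compared gene by gene with two-sided Fisher's exact tests and Benjamini-Hochberg adjustment over all genes with a read in the pair. Calls needed a fold above 1.5 on log2(FPKM + 0.1) besides an adjusted p under 0.05. This is a scale that understates changes of low genes. These tests compare libraries, not conditions. Counting standard errors are on counts plus 0.5. The additive fit used edgeR 4.0.16 (TMM, filterByExpr, quasi-likelihood test) in R 4.3.3. For the length trend, the log2 deviations in each library were smoothed over log2 transcript length by lowess (fraction 0.3), using genes of 200 bases or more that averaged 1 FPKM or more. Other steps used Python 3.11.15, SciPy 1.17.1, statsmodels 0.14.6 and Biopython 1.88. The scripts were tested on simulated data.

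The 4 receptors and the gene lists were chosen with earlier results of these data known. A gene of the list of Dectin-1 signalling genes is not reported here and was left out of that list's counts and medians. Named genes were the 4 receptors, Trim24, the 3 nearest genes of each receptor, up to 4 genes per list called the same way with IL-4 in both genotypes and averaging 1 FPKM or more, and the highest and lowest called gene of a list between genotypes. Alternatives were pseudocounts of 0.01 and 1, a filter on low values, TMM, DESeq2 and upper-quartile scaling, CPM, a fold of 2, assumed biological coefficients of variation of 0.1, 0.2 and 0.4, DESeq2 and limma for the additive fit, removal of the length trend, and the sum of Clec10a and Mgl2.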

Additional observations from a re-analysis of the deposited data

Results flagged for a closer look

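The IL-4 response of Mrc1 was smaller in the knockout than in the wild-type by a difference of -0.34 ± 0.08 on the log2 scale (95% counting interval -0.49 to -0.19, adjusted p = 0.00039), by the test of the difference itself. For Clec7a the same difference was -0.36 ± 0.03 (interval -0.43 to -0.30, adjusted p = 1.7e-26). Both tests cover counting error in 4 libraries only, and both differences stayed under 1.5-fold. The differences share the nontreat libraries, in which both genes were higher in the knockout (log2 ratios 0.47 and 0.18).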

How the results depend on the processing

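With 1 library per group no library could be left out, and no test here covers differences between mice or cultures. No paired analysis was possible because each group held 1 library. When biological variation was assumed instead (edgeR's exact test at a coefficient of variation of 0.4), the number of receptors called with IL-4 went from 4 to 1 in the wild-type (Mgl2, adjusted p = 0.010) and to 0 in the knockout. At 0.2, Clec7a alone lost its call, in both genotypes (adjusted p = 0.07 and 0.47), and at a fold above 2 it lost its call in the knockout (log2 0.98). Between the IL-4 libraries, removal of the length trend brought 1 receptor past the limits (Mgl2, 0.60, adjusted p = 0.017) and turned the ratio of Mrc1 to -0.071 and that of Clec10a to 0.0429. Summing Clec10a and Mgl2 gave 0.0913 there. The additive genotype term of Clec10a was -0.0255 with upper-quartile scaling, and that of Clec7a 0.0288 without the length trend, against 0.02 and -0.01 as fitted. No turned ratio of Clec10a or Clec7a passed the test, and that of Mrc1 had an adjusted p of 0.027 far under 1.5-fold. All other calls and directions held. Adjusted p-values of uncalled genotype ratios did cross 0.05: that of Mgl2 with IL-4 (0.042) was 0.056 with TMM or DESeq2 scaling, 0.073 with upper-quartile scaling and 0.64 summed with Clec10a, and at an assumed coefficient of variation of 0.1 every genotype ratio of the 4 receptors had an adjusted p of at least 0.81. The 3 reads of Mgl2 in the wild-type nontreat library limit every ratio that rests on them: its wild-type IL-4 ratio ran from 2.33 (summed with Clec10a) to 5.003 on the log2 scale over the alternatives.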
